A study of Mus musculus with 12 samples.

Results

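The genes described here are 10 that make or process the cargo of dense-core vesicles: the granins Vgf, Scg2, Scg3, Chga and Chgb, the convertases Pcsk1 and Pcsk2, their binding proteins Pcsk1n and Scg5, and the carboxypeptidase Cpe. They were taken by symbol from a table of 48795 genes, each member matching 1 row, and all 10 passed the expression filter that left 17725 genes for testing. RNA of the piriform cortex, a cortical area that receives direct input from the olfactory bulb, was sequenced from 12 mice on a C57BL/6 background, all 12 months old and all on plate 1. The Q140 group was 6 mice (3 females, 3 males) with 1 copy of the Q140 knock-in allele of Htt, the huntingtin gene, a germline change present in all cells that models Huntington's disease. The wild type (WT) group was 6 mice (3 females, 3 males). Libraries are of separate animals, and the tests weigh differences against the spread among them.

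Neurons store peptides and neurotrophins in dense-core vesicles, apart from the small vesicles that hold glutamate or GABA. Granins are acidic proteins that aggregate in the trans-Golgi network and help these vesicles to form, and several are themselves cut into peptides. Prohormone convertase 1/3 (PC1/3, from Pcsk1) and PC2 (from Pcsk2) cut prohormones after pairs of basic residues, and carboxypeptidase E (Cpe) then trims those residues off. PC2 needs the protein 7B2 (from Scg5) to become active, and 7B2 also yields a peptide that inhibits PC2. ProSAAS (from Pcsk1n) yields an inhibitor of PC1/3. Some of these genes, Vgf and Scg2 among them, are known to be induced by neuronal activity through the transcription factor CREB, which binds the cAMP response element (CRE).

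The CRE sites in the promoters of these genes are shown because members that carry the same element, Chgb, Scg2 and Pcsk1, did not move alike between the genotypes. RefSeq promoters on GRCm38.p6 (250 bases before to 50 after the start) were at hand for 8 of the 10 members. Those of Vgf and Cpe were not at hand and were not searched. The full CRE, TGACGTCA, which reads the same on both strands, was found in 3 of the 8, against 1.79% of all 32851 promoters of that length. The shorter core TGACG, on either strand, which also lies within each full element, was found in 7 of the 8, against 20.8% of all promoters. In the Pcsk1n promoter neither form was found. Each line gives 30 bases, 5′ to 3′ on the strand of the gene, with the element in capitals.
Chgb: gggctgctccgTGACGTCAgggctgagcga
Scg2: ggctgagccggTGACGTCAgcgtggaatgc
Pcsk1: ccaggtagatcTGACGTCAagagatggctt
Chga: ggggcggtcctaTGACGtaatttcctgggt
Pcsk2: ctggcgggcgcgCGTCAcccgggctggcgc
Scg3: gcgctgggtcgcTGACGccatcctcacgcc
Scg5: aaaggaggtaaaTGACGttcataggggtcg

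The full element began 72 bases before the RefSeq start in Chgb (chr2:132781559-132781588, plus strand), 68 in Scg2 (chr1:79440076-79440105, minus strand) and 78 in Pcsk1 (chr13:75089768-75089797, plus strand). GENCODE M21 sets the first exon of Chgb and of Scg2 further upstream, so their elements lie inside an annotated exon. The core nearest before the start lay 44 bases away in Chga (chr12:102554885-102554914, plus strand), 34 in Pcsk2 (chr2:143546087-143546116, plus strand), 30 in Scg3 (chr9:75684069-75684098, minus strand) and 175 in Scg5 (chr2:113829249-113829278, minus strand). In Pcsk2 the letters are those of the opposite strand. Of the RE1 element bound by the repressor REST, the parts TTCAGCACC and GGACAGC were searched on both strands. Among the 8 promoters both were found in Scg2 and in no other, against 0.371% and 6.56% of all promoters. A match is a description of letters, not of binding.

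The libraries held 19587208 to 35198602 counts, and a gene with no reads could still be at 0.0854 to 0.149 CPM (counts scaled to the same library size) by library (3 counts, counting error only), far below every member. Htt had 143 to 164 CPM in Q140 animals and 180 to 204 CPM in WT animals (log2 fold change −0.37, SE 0.0428, edgeR adjusted p = 0.000203). The sex read from the data matched the label in 12 of 12 libraries. Markers of cortical excitatory neurons were present in all libraries, whereas the pituitary hormone genes Cga, Gh, Prl and Tshb had no reads in any. They belong to a list of 14 hypothalamic and pituitary genes, of which the others had some reads. Only Pomc of that list passed the expression filter, at a mean of 0.676 CPM in Q140 and 0.774 CPM in WT. The animals' names carry a prefix that the labels do not explain: RFQ names 3 Q140 males and 1 WT male, RFckQ 1 Q140 female and 4 WT animals, FMQ 1 WT female, and Q140 animals 1 and 2, both female, carry none. All Q140 males are RFQ and no Q140 female is, so sex and prefix cannot be told apart among Q140 animals.

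In level per length the members spanned a wide range. FPKM (fragments scaled by gene length and library size) averaged 761 ± 46.3 for Cpe, 277 ± 45.8 for Chgb, 261 ± 26.9 for Pcsk1n and 118 ± 9.72 for Scg3 (SD, n = 12). Next came Chga at 86.3 ± 7.65, Scg5 at 84.8 ± 10.7, Scg2 at 73.6 ± 10.7, Vgf at 65.1 ± 8.43, Pcsk2 at 36.4 ± 6.03 and Pcsk1 at 8.13 ± 2.02 FPKM. Cpe ranked 12th of all genes in the table by mean FPKM and 93.6 times above Pcsk1, which ranked 6295th. Chgb and Pcsk1n could not be ordered: Chgb was the higher of the pair in 6 of 12 animals. Chga and Scg5, Scg5 and Scg2, and Scg2 and Vgf also overlapped, with the first of each pair higher in 9, 9 and 10 animals. The other neighbours in the order did not overlap, and by FPKM PC2 transcript exceeded PC1/3 transcript in every animal. The lengths implied by the deposited FPKM are shorter than the full exon length in GENCODE for Scg3, Chga and Pcsk1, so their places depend on the authors' gene models.

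**Figure D1:**
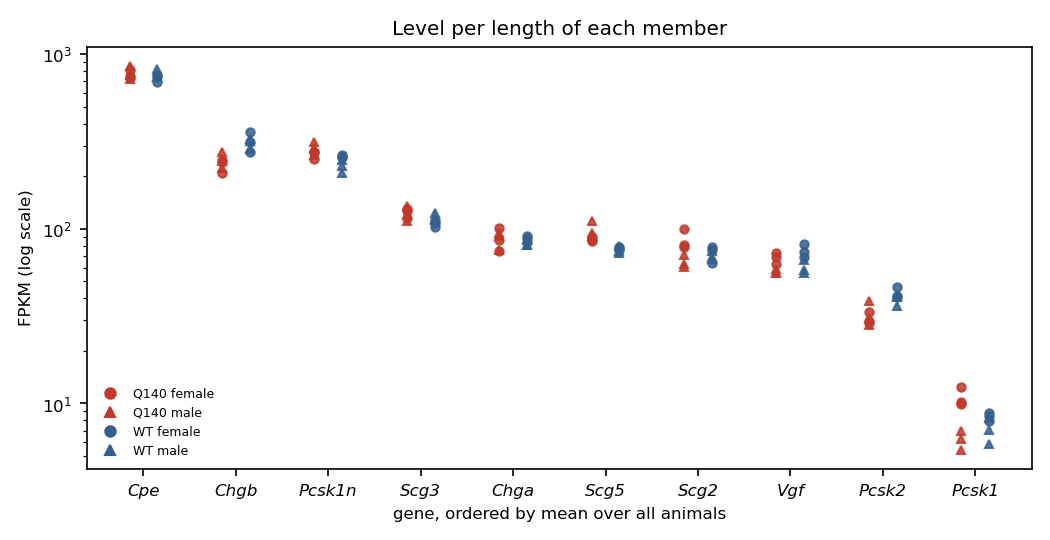
FPKM of each of the 10 genes (log scale), ordered by the mean over all animals, with 1 point per animal (Q140 left of WT, circles female, triangles male). Cpe stands highest at 690 to 856 FPKM and Pcsk1 lowest at 5.42 to 12.4 FPKM, while the points of Chga, Scg5, Scg2 and Vgf overlap.

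Between the genotypes, 3 of the 10 members changed, in opposite directions. Chgb fell by 25.7% and Pcsk2 by 25.5% in Q140 cortex, Scg5 was 1.17 times as high, and 7 members did not pass the test. That is 1 of 10 higher and 2 of 10 lower, where over all 17725 genes tested 4.5% were called higher and 6.69% lower (11.2% in all). The median log2 fold change was 0.01 over the members and 0.00 over all genes tested. At an unadjusted p below 0.05 there were 5 of the 10 members, beside 4728 of all 17725 genes tested. All values below are edgeR quasi-likelihood results with sex as a covariate, adjusted over all genes tested.

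Chgb, the most abundant granin transcript here, encodes chromogranin B (secretogranin I) and lies on chromosome 2 (132781278 to 132795079, GRCm38). It had 578, 659 and 738 CPM in Q140 animals and 777, 878 and 1017 CPM in WT animals (lowest, median and highest, n = 6 each). The highest Q140 animal lay below the lowest WT animal. Its log2 fold change was −0.43 (SE 0.0724, adjusted p = 0.0025).

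Pcsk2 (chromosome 2, 143546156 to 143816285) had 214, 237 and 298 CPM in Q140 animals and 287, 330 and 378 CPM in WT animals (lowest, median and highest). Here 5 of 6 Q140 animals lay below every WT animal, and Q140 animal 5, at 298 CPM, lay above WT animal 5, at 287 CPM. The log2 fold change was −0.42 (SE 0.0769, adjusted p = 0.00363). The antisense gene Pcsk2os1 shares 260 exon bases with Pcsk2. Its own reads came to 1492 over all animals, which is 1.45% of the 102729 reads of Pcsk2, and the strand setting of the counting is not given in the sources used here.

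Scg5 (chromosome 2, 113776362 to 113829121), which encodes the 7B2 partner of PC2, went the other way. It had 134, 139 and 169 CPM in Q140 animals and 115, 124 and 126 CPM in WT animals (lowest, median and highest). Every Q140 animal lay above every WT animal. The log2 fold change was 0.23 (SE 0.0542, adjusted p = 0.0169). Chgb and Scg5 were the 2 of 10 members whose genotypes did not overlap, where 4.59% of all genes tested did not (1.88% with all Q140 animals above and 2.7% with all below).

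**Figure D2:**
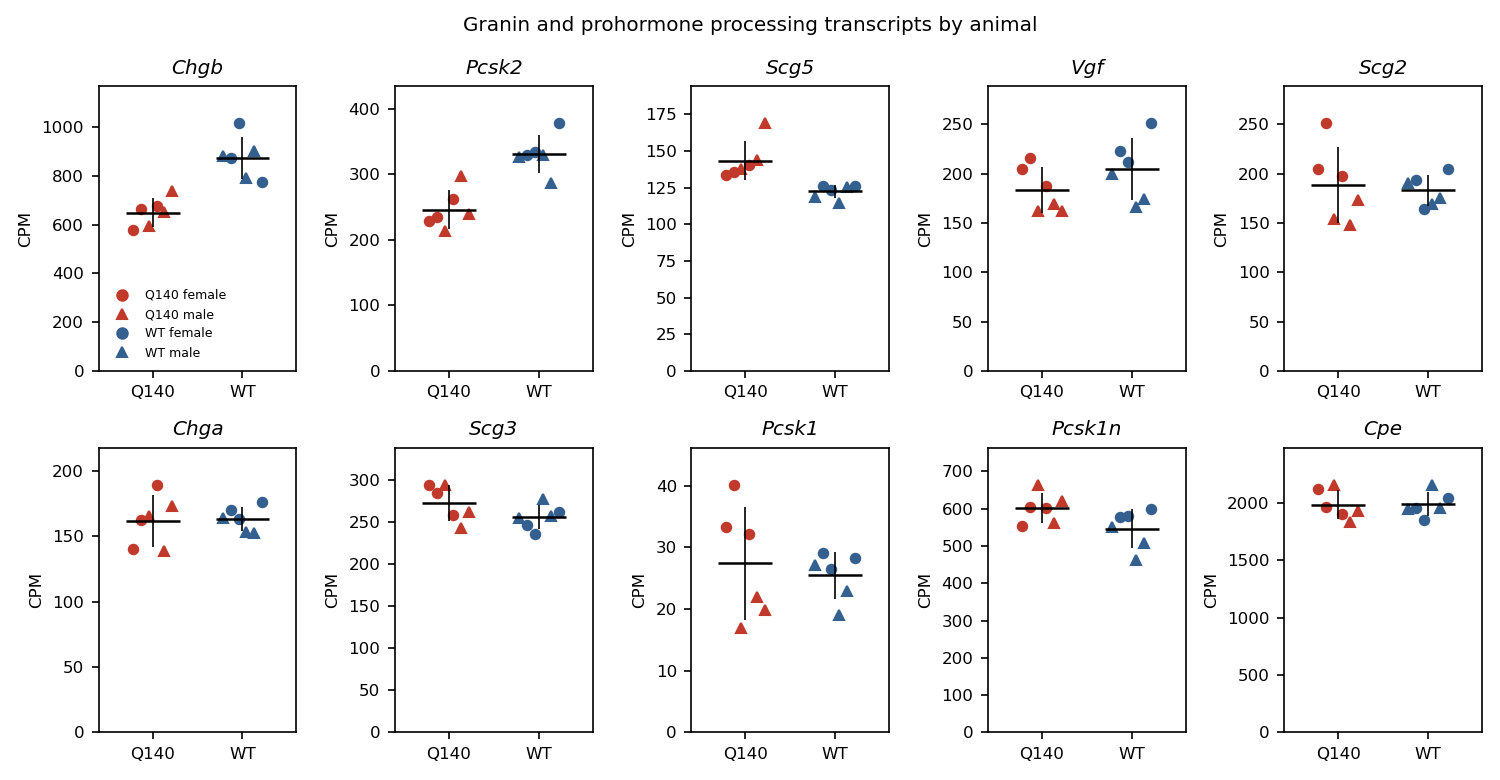
CPM of each gene with 1 point per animal (Q140 left, WT right, circles female, triangles male), the mean as a horizontal line and the SD as a vertical line, each axis starting at 0. Chgb separates the genotypes downward and Scg5 upward, Pcsk2 does so but for 1 animal of each genotype, and in Vgf, Scg2 and Pcsk1 the triangles of Q140 males lie below the circles of Q140 females.

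Bulk RNA cannot tell fewer cells of a type from less RNA per cell, and some neuronal markers moved with these falls. The marker counts here stand beside 4.5% of all genes tested called higher and 6.69% called lower. Among 14 markers of excitatory neurons 8 fell and 0 rose, with 6 not passing (median log2 fold change −0.35), and their summed level was 6389 to 7130 CPM in Q140 animals and 8016 to 10103 CPM in WT animals. Among them Lingo1 (log2 fold change −0.54), Arpp21 (−0.50), Slc30a3 (−0.57) and Sv2b (−0.47) had the smallest p-values. With the mean of this list as a covariate no member was called, and 251 of all genes tested were, against 1982 without it. Chgb was −0.41 (SE 0.115, adjusted p = 0.105), against −0.43 (SE 0.0724) without the covariate. Scg5 was 0.30 (SE 0.0832, adjusted p = 0.0989), against 0.23 (SE 0.0542). Pcsk2 was −0.13 (SE 0.0721, adjusted p = 0.466), against −0.42 (SE 0.0769). The list mean ran from −0.30 to −0.02 in Q140 animals and from −0.11 to 0.39 in WT animals (centred log2 CPM). It largely follows genotype, so this fit cannot tell the list from the genotype. Of 10 oligodendrocyte markers 5 rose and 0 fell (summed level 4060 to 5797 CPM in Q140 and 3557 to 5040 CPM in WT), with Enpp6 (log2 fold change 1.12) and Mog (0.61) among them. Of 12 pan-neuronal markers 3 fell and 0 rose, Snap25 (−0.35), Syt1 (−0.26) and Rbfox3 (−0.26). In the other marker lists 4 of 12 inhibitory neuron genes fell, led by Lamp5 (−0.62), and 0 rose, with 5 estimates above 0 and 7 below. The general inhibitory markers Gad1 (−0.03), Gad2 (0.02) and Slc32a1 (0.24) did not pass. Of 16 striatal genes 2 fell, while of 10 astrocyte genes 1 rose (S100b, 0.56) and 1 fell (Slc1a2, −0.31). Of 8 microglial and of 8 vascular genes 1 each rose, and 0 of 11 meningeal and 0 of 4 tested choroid plexus genes passed. With the striatal list mean as a covariate Chgb was −0.43 (adjusted p = 0.00139), Pcsk2 −0.42 (adjusted p = 0.000568) and Scg5 0.23 (adjusted p = 0.0117), and with the meningeal list mean they were −0.37 (adjusted p = 0.00488), −0.42 (adjusted p = 0.00978) and 0.25 (adjusted p = 0.0162), so all 3 passed in both fits. The part of the lists not named here as covariates was not tested.

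Within each name prefix the 3 genes differed in the same directions, though with 1 animal on one side. Among RFQ animals Chgb was at 593 to 738 CPM in 3 Q140 and 794 CPM in 1 WT, and among RFckQ animals at 675 CPM in 1 Q140 and 875 to 1017 CPM in 4 WT. Pcsk2 was at 214 to 298 CPM in RFQ Q140 and 329 CPM in RFQ WT, and at 263 CPM in RFckQ Q140 and 287 to 335 CPM in RFckQ WT. Scg5 was at 138 to 169 CPM in RFQ Q140 and 115 CPM in RFQ WT, and at 141 CPM in RFckQ Q140 and 118 to 126 CPM in RFckQ WT. Over these 9 libraries with the prefix as a covariate the log2 fold changes were −0.37 for Chgb (adjusted p = 0.138), −0.37 for Pcsk2 (adjusted p = 0.181) and 0.29 for Scg5 (adjusted p = 0.188), so none passed.

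The other granins did not pass. Vgf, a secreted polypeptide induced by neurotrophins, had 162, 178 and 216 CPM in Q140 animals and 167, 206 and 251 CPM in WT animals (lowest, median and highest), and the genotypes overlapped. Its log2 fold change was −0.16 (SE 0.0549, adjusted p = 0.0859), and it passed when WT animal 4, the lowest WT animal, was left out (−0.18, adjusted p = 0.0475). Scg2, the precursor of secretoneurin, had 148 to 251 CPM in Q140 animals and 164 to 205 CPM in WT animals, and the log2 fold change was 0.02 (SE 0.0862, adjusted p = 0.895). The Q140 range enclosed the WT range. Scg3, a granin that ties Chga aggregates to the vesicle membrane, had 243 to 295 CPM in Q140 animals and 236 to 278 CPM in WT animals, and the log2 fold change was 0.09 (SE 0.0555, adjusted p = 0.307). Chga, which encodes chromogranin A, the relative of chromogranin B, had 139 to 190 CPM in Q140 animals and 153 to 176 CPM in WT animals, and the log2 fold change was −0.01 (SE 0.0686, adjusted p = 0.924). For Chga the estimate ± 2 SE ran from −0.15 to 0.12, whereas that of Chgb ran from −0.57 to −0.28.

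Of the remaining processing genes, Pcsk1 had 16.99 to 40.1 CPM in Q140 animals and 19.0 to 29.0 CPM in WT animals (log2 fold change 0.06, SE 0.114, adjusted p = 0.771). Its Q140 animals spread more widely than its WT animals on both sides. Pcsk1n had 554 to 664 CPM in Q140 animals and 462 to 600 CPM in WT animals. All 6 Q140 animals lay above the WT mean of 546 CPM, but the log2 fold change of 0.14 (SE 0.0631) did not pass (adjusted p = 0.169). Cpe had 1833 to 2158 CPM in Q140 animals and 1854 to 2159 CPM in WT animals, and the log2 fold change was 0.00 (SE 0.0522, adjusted p = 0.993). The estimate ± 2 SE for Cpe ran from −0.11 to 0.10, the narrowest of the members.

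**Figure D3:**
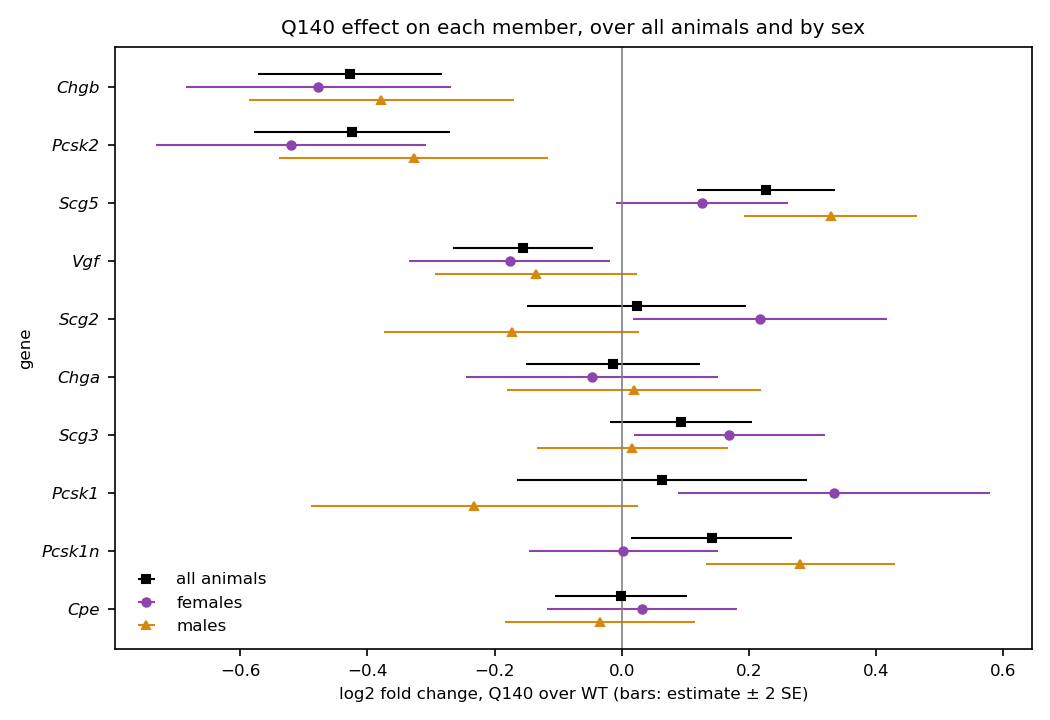
Log2 fold change of Q140 over WT for each gene, over all animals (squares), in females (circles) and in males (triangles), with bars of the estimate ± 2 SE. Chgb and Pcsk2 lie left of 0 and Scg5 right of it in all 3 comparisons, while the female and male estimates of Scg2 and Pcsk1 lie on opposite sides of 0.

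Each convertase was also set against its own binding protein within an animal. The FPKM ratio of Scg5 to Pcsk2 was 2.44, 2.92 and 3.56 in Q140 animals and 1.68, 1.84 and 2.20 in WT animals (lowest, median and highest). No Q140 ratio reached down to a WT ratio. The mean log2 ratio was 0.66 higher in Q140, a factor of 1.57 (exact permutation p = 0.00216, two-sided, the smallest that 6 against 6 can give, and 0.00433 adjusted over the 2 ratios). Both genes had passed the genotype test in opposite directions, so this ratio restates their values within each animal. The difference was 0.66 in males and 0.65 in females on the log2 scale.

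For the ratio of Pcsk1n to Pcsk1 the genotypes did not pass over all animals (log2 difference 0.09, exact permutation p = 0.701, 3 of 6 Q140 animals above the WT mean). Q140 females had ratios of 24.6, 22.3 and 27.6, and WT females 29.4, 32.4 and 31.3. Q140 males had ratios of 57.8, 37.9 and 46.1, and WT males 30.04, 35.8 and 32.7. All 3 Q140 females thus lay below every WT animal and all 3 Q140 males above. The Q140 effect was 0.51 in males and −0.33 in females on the log2 scale, a difference of 0.83 that did not pass when sex labels were permuted within genotype (exact p = 0.085, 0.17 adjusted over the 2 ratios, smallest possible 0.005). Within RFckQ the 1 Q140 animal had 27.6 against 29.4 to 32.7 in 4 WT, and within RFQ the 3 Q140 animals had 37.9 to 57.8 against 35.8 in 1 WT, so sex and prefix cannot be told apart in this pattern.

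**Figure D4:**
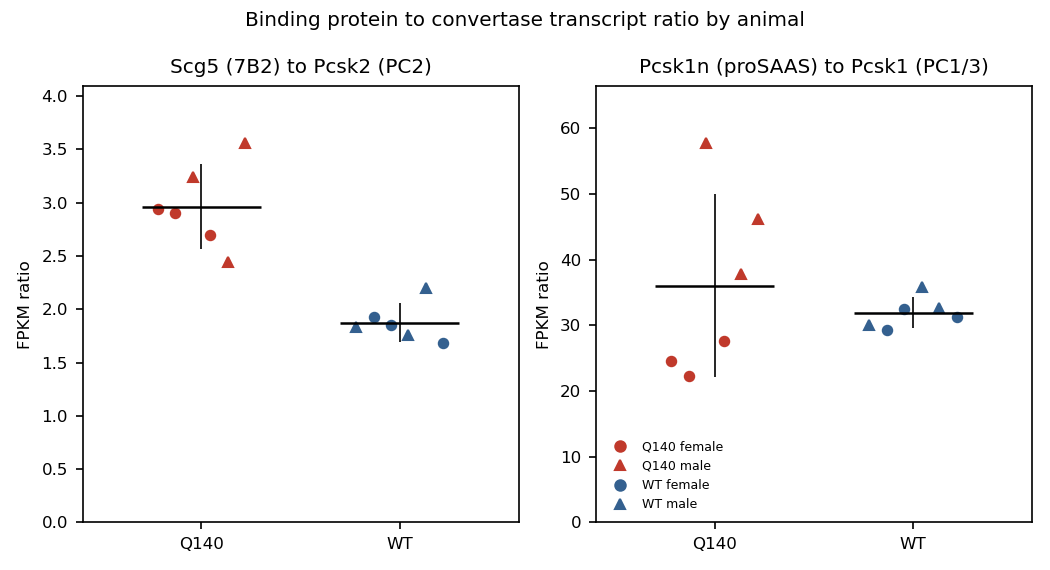
FPKM ratio of each binding protein transcript to its convertase transcript, 1 point per animal (Q140 left, WT right, circles female, triangles male), with the mean as a horizontal and the SD as a vertical line. The Scg5 to Pcsk2 ratio separates the genotypes, at 2.44 to 3.56 in Q140 and 1.68 to 2.20 in WT, while in the Pcsk1n to Pcsk1 ratio the Q140 females lie below and the Q140 males above all WT animals.

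Tested by sex, 2 members fell in Q140 females, Chgb (log2 fold change −0.48, SE 0.104, adjusted p = 0.0176) and Pcsk2 (−0.52, SE 0.106, adjusted p = 0.013), and 0 rose, where 7.05% of all genes were called (2.83% higher, 4.21% lower). In males 1 rose, Scg5 (0.33, SE 0.0682, adjusted p = 0.0346), and 0 fell, where 1.4% of all genes were called (0.44% higher). The estimates of the other sex had the same sign: Scg5 was 0.13 in females (adjusted p = 0.283), and in males Chgb was −0.38 (adjusted p = 0.0927) and Pcsk2 −0.33 (adjusted p = 0.145). The contrast of the Q140 effect in males minus females passed for 0 members in edgeR and 0 in DESeq2, with 0% of all genes called in edgeR. Of all 17725 genes tested 1633 had an unadjusted p below 0.05, and so did 3 members. These were Pcsk1 (males minus females −0.57, SE 0.178, adjusted p = 0.471), Scg2 (−0.39, SE 0.142, adjusted p = 0.471) and Pcsk1n (0.28, SE 0.105, adjusted p = 0.474). The calls within a sex rested on single libraries. Chgb in females did not pass without Q140 animal 1 or 2 or WT animal 3 (adjusted p = 0.0667 to 0.0771), nor Pcsk2 without Q140 animal 1 or 2 (0.0525 and 0.0741). Scg5 in males did not pass without Q140 animal 2 or 6 or WT animal 1, 3, 4 or 5 (0.0533 to 0.147), and without Q140 animal 5 Pcsk2 (0.0141) and Pcsk1n (0.0238) passed in males.

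Males and females differed in 2 members, over both genotypes, where 0.654% of all genes were called (0.457% lower in males). Vgf had 162, 168 and 200 CPM in males and 187, 214 and 251 CPM in females (lowest, median and highest, n = 6 each), with 1 male, WT animal 1, above the lowest female. It was lower in males (log2 fold change −0.32, SE 0.0549, adjusted p = 0.0154). Pcsk1 had 16.99, 20.9 and 27.1 CPM in males and 26.4, 30.6 and 40.1 CPM in females, again with WT animal 1 as the only male within the female range. Its log2 fold change was −0.56 (SE 0.115, adjusted p = 0.0418). By genotype Pcsk1 averaged 35.2 CPM in Q140 females and 19.6 CPM in Q140 males. In WT it averaged 27.9 CPM in females and 23.0 CPM in males, and the sexes overlapped. Vgf averaged 203 and 164 CPM in Q140 females and males, and 229 and 180 CPM in WT females and males. Scg2, at 148 to 190 CPM in males and 164 to 251 CPM in females, was −0.27 (SE 0.0862, adjusted p = 0.202). Vgf did not pass without Q140 animal 1 or 2 (adjusted p = 0.0524 and 0.0565), nor Pcsk1 without any one of the Q140 animals or WT animal 4, 5 or 6 (0.0518 to 0.122). Without the 4 RFQ animals, all of them male, neither passed: Vgf was −0.29 (adjusted p = 0.702) and Pcsk1 −0.16 (adjusted p = 0.74) with 2 males left.

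After the means of genotype and sex were taken out, members varied by an SD of 0.09 (Scg5) to 0.18 (Pcsk1) log2 CPM between animals, and few pairs of members varied together. Over the 45 pairs the median Pearson r was 0.09, and 2 passed a permutation test (100000 resamples, adjusted over the pairs). The residuals are of 4 group means over 12 animals, which the permutation treats as free values, so these p-values are somewhat too small. Scg3 and Cpe varied together (r = 0.96, Spearman rho 0.97, adjusted p = 0.0009 for each, and r = 0.93 without the 2 animals farthest from the median of Scg3). Chgb and Cpe ran opposite (r = −0.81, adjusted p = 0.043, and rho −0.73, adjusted p = 0.102, with r = −0.79 without 2 animals). Vgf went with Pcsk1 (r = 0.74, rho 0.71, adjusted p = 0.087 and 0.102) and Scg2 (r = 0.70, rho 0.60, adjusted p = 0.0987 and 0.317) without passing. Chgb and Pcsk2, which both fell in Q140, had an r of −0.05 within groups.

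The genes whose residuals were most like each member's, among 10498 with a mean of at least 10 CPM over the 12 libraries, are given as a description. For Chgb they were Rit2 (r = 0.97), Rufy3 (0.97) and Reep5 (0.97), for Pcsk2 Mtpn (0.98), Cyfip2 (0.98) and Akirin2 (0.97), and for Scg5 Rheb (0.98), Trp53rka (0.97) and Mrps18c (0.94). For Scg3 they were Ddah1 (0.99), Plxnb1 (0.98) and Asrgl1 (0.98), and for Cpe Plpp3 (0.99), Rftn2 (0.99) and Glud1 (0.97). Plpp3 and Glud1 are well expressed in astrocytes. The mean of 10 astrocyte markers ran from −0.16 to 0.20 in Q140 animals and from −0.15 to 0.19 in WT animals (centred log2 CPM), highest in Q140 animal 3 and WT animal 4, which also had the highest Cpe of their genotypes at 2158 and 2159 CPM. The same animals were also highest of their genotypes in the means of the microglial, vascular, meningeal and oligodendrocyte lists. In the pan-neuronal list they were lowest of their genotypes, at −0.18 and −0.06. The match is thus not particular to astrocytes, and the part of any cell type's RNA in these relations was not tested. For Vgf they were Trit1, Drc1 and 2210013O21Rik (0.90 to 0.97), for Scg2 Yipf6, Recql and Peg10 (0.89 to 0.94), for Chga Rprml, Cxxc5 and Cs (0.94 to 0.95), for Pcsk1 Nus1, Usp29 and Gm13461 (0.93 to 0.96), and for Pcsk1n Zmiz2, Zfp771 and Timmdc1 (0.96 to 0.97). Between the genotypes Rit2 was higher in Q140 (log2 fold change 0.19, adjusted p = 0.048), where Chgb was lower.

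The rest of the pathway was described from lists by the same fit. Over all genes tested that fit called 4.5% higher and 6.69% lower (11.2% in all), to be set beside each list count below. Furin, the ubiquitous convertase of the trans-Golgi network, had 39.9 ± 1.41 CPM in Q140 and 37.9 ± 3.30 CPM in WT (SD, n = 6 each, log2 fold change 0.08, edgeR adjusted p = 0.318).

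Of 14 tested enzymes that trim or modify peptides 3 rose, 0 fell and 11 did not pass (median 0.03). These were Rnpep, aminopeptidase B, which removes basic residues from the amino end (log2 fold change 0.32, adjusted p = 0.0012), Qpct, which closes amino-terminal glutamine into pyroglutamate (0.58, adjusted p = 0.00169), and Cpm, a membrane carboxypeptidase (0.40, adjusted p = 0.0257). Pam, which amidates the carboxyl end of peptides, was 0.10 (adjusted p = 0.601).

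Of 36 tested genes on a list for dense-core vesicle formation and release 1 rose, 4 fell and 31 did not pass (median −0.06). Of the 4 that fell, Cpeb4 is a regulator of mRNA translation rather than a vesicle gene (−0.24, adjusted p = 0.00266). The others were Syt7, a calcium sensor of vesicle fusion (−0.21, adjusted p = 0.0098), Rab3d (−0.31, adjusted p = 0.0106) and Hid1, needed for vesicle maturation (−0.17, adjusted p = 0.042). Baiap3, of the Munc13 family, rose (0.52, adjusted p = 0.00745). Ptprn, a protein of the vesicle membrane, was −0.12 (adjusted p = 0.144) and Cadps2, a priming factor, −0.09 (adjusted p = 0.799).

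Of 28 tested genes for peptide precursors and binding proteins, the cargo and clients of these enzymes, 0 rose, 4 fell and 24 did not pass (median −0.25). Penk, the enkephalin precursor, had 135 ± 36.7 CPM in Q140 and 270 ± 98.5 CPM in WT (SD, n = 6 each, log2 fold change −1.02, adjusted p = 0.0141). It overlaps a gene annotated on the opposite strand. Pdyn, the dynorphin precursor (−1.02, adjusted p = 0.0269), Sst, for somatostatin (−0.76, adjusted p = 0.00997), and Crhbp, the binding protein of corticotropin-releasing hormone (−0.83, adjusted p = 0.0299), also fell. Penk and Pdyn are also striatal markers, a list whose mean spread over the animals by more than its genotypes differed (−0.59 to 0.43 in Q140 and −1.68 to 0.94 in WT, centred log2 CPM), and its part in their falls was not tested. Gnas, whose locus also encodes the granin-like NESP55, was 0.01 (adjusted p = 0.913), over all its transcripts.

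Of 24 activity-regulated genes, many of them targets of CREB, 10 fell, 0 rose and 14 did not pass (median −0.33). Of the estimates 21 were below 0 and 3 above. Egr2 (−1.19, adjusted p = 0.00177), Dusp1 (−0.49, adjusted p = 0.00211), Per1 (−0.48, adjusted p = 0.00448) and Dusp6 (−0.38, adjusted p = 0.00773) had the smallest p-values. Fos (−0.27, adjusted p = 0.238), Egr1 (−0.27, adjusted p = 0.211), Nr4a1 (−0.41, adjusted p = 0.0637) and Npas4 (−0.02, adjusted p = 0.93) did not pass. The part of CREB in these values was not tested. In males against females 7 of the list were lower and 1 was higher (median −0.25), beside the lower Vgf and Pcsk1 of males, and here too the 4 RFQ animals are all male. Over all genes tested 0.457% were called lower in males and 0.197% higher. Of the searched members whose promoter holds the full CRE, Chgb fell in Q140 while Scg2 and Pcsk1 had log2 fold changes of 0.02 and 0.06. The promoter of Vgf was not searched.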

How the data were processed

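Per the labels' protocols, total RNA of dissected cortex was purified on Qiagen RNeasy columns and sequenced from stranded Illumina TruSeq libraries. The deposited count table holds whole reads per gene and animal, not normalized, and the FPKM values deposited beside it are those counts scaled by library total and gene length. Tools named in the submitters' processing notes are HTSeq 0.12.3, SAMtools 1.10 and STAR 2.7.5c, with builds mm10 and GRCm38. Neither the strand setting of the counting nor the gene models are stated there. Groups came from the labels.

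Counts were tested in edgeR 4.0.16 (R 4.3.3) by its quasi-likelihood test with TMM factors and its default expression filter by genotype. The genotype fit had sex as a covariate, a fit of the 4 groups of genotype and sex gave the effects by sex and their difference, and genotype was the covariate of males against females. Tests are two-sided, Benjamini-Hochberg adjusted over 17725 genes, with a threshold of 0.05. CPM uses TMM-scaled library sizes, and fold changes near 0 are relative to that scaling. The 2 ratios were compared by exact permutation of animals. The fits were checked on simulated counts. Library sizes, and so precision, differed by less than a factor of 2, and intervals cover the spread between animals. No 2 libraries agreed within sampling noise.

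The members and the gene lists were chosen with earlier results of these data known. Genes outside the members were named by a rule: from each list up to 4 called genes with the smallest p, or else the 1 with the smallest p, with Gnas, Pam, Furin, Ptprn and Cadps2 in any case, Htt, and the 3 genes most like each member; not all are given. Gad1, Gad2, Slc32a1, Fos, Egr1, Nr4a1 and Npas4 are given outside this rule. Alternatives were other size factors and filters, DESeq2 1.42.0, limma 3.58.1 on counts and on log2(FPKM + 0.1) or log2(FPKM + 1), no sex covariate, a surrogate variable (sva 3.50.0), list means as covariates, name prefix or number in the fit, length and GC offsets, and each animal left out. The fit without the 4 RFQ animals and the sex difference of the ratios were added after the data were seen. Positions are from GENCODE M21 on GRCm38, and promoter sequences from RefSeq on GRCm38.p6. The count of the other proprotein convertases is not reported here.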

Additional observations from a re-analysis of the deposited data

Results flagged for a closer look

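Scg5 in Q140 animal 6, a male, stood apart from its group at 168.9 CPM, where the other 5 Q140 animals lay between 134 and 144 CPM; the gap was 0.701 of the group's range. It was the only such case among 24 groups of 6 animals examined (10 members and both ratios in each genotype), where chance gives about 1 in 20. Without this animal Scg5 still passed over all animals.

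The Q140 effect on the log2 ratio of Pcsk1n to Pcsk1 differed between the sexes by 0.83 (0.51 in males, −0.33 in females), because every Q140 male lay above and every Q140 female below the WT animals. The test of that difference gave an exact p of 0.085 (0.17 adjusted), and prefix and sex cannot be told apart.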

How the results depend on the processing

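Over all animals, the 3 calls (Scg5 higher, Chgb and Pcsk2 lower) were made under each of 27 of the 30 alternatives; without WT animal 4 Vgf was called lower too. The count was 0 with the excitatory list mean as covariate, 0 with the name prefix (9 libraries) and 0 with the animal number as block (5 libraries); over all genes these gave 251, 81 and 1 calls, 862 were called without WT animals 3 and 6 and 1187 with the meningeal covariate, against 1982. Library size alone moved the split of all genes to 1624 higher and 822 lower, against 797 and 1185, with a median shift of 0.05. The paired fit (replicate block) used the 2 animal numbers found in both genotypes (150 and 161); with it Chgb was −0.45 (adjusted p = 0.488), Pcsk2 −0.35 (adjusted p = 0.706) and Scg5 0.26 (adjusted p = 0.619), and the labels do not state that a number marks a shared litter or day.

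Uncalled members near 0 changed sign, and the cause was not tested. Scg2 was −0.0596 without WT animals 3 and 6 and −0.0751 with the excitatory covariate, Scg3 −0.0145 with that covariate, and Pcsk1 −0.0550 and −0.0374 under the same pair. Chga was 0.0330 with library size alone, 0.0256 and 0.0254 by limma on FPKM with pseudocounts of 0.1 and 1, 0.0689 with the excitatory covariate, 0.116 with prefix and 0.0907 with number. Cpe was 0.00593 without a filter, 0.00439 with upper quartile factors, 0.0458 with library size, 0.00857 by voom, 0.0448 and 0.0447 by limma on FPKM with those pseudocounts and 0.00221 with the surrogate variable. Leaving out single animals gave −0.0485 to 0.0668 for Scg2, −0.0615 to 0.0353 for Chga, −0.0163 to 0.150 for Pcsk1 and −0.0278 to 0.0251 for Cpe.

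Leaving out single animals gave 0 to 2 member calls in females, 0 to 3 in males and 0 to 2 for males against females; males had 4 with no filter and 3 by DESeq2, and males against females 0 without the RFQ animals. Over all genes, no filter and DESeq2 called 576 and 695 in males (edgeR 248), 220 and 350 between the sexes (edgeR 116, and 1 without the RFQ animals), and DESeq2 23 for the sex difference of the effect (edgeR 0); leaving out single animals gave 1139 to 2504 over all animals, 228 to 1426 in females, 41 to 747 in males and 45 to 146 between the sexes. The log2 Scg5 to Pcsk2 ratio stayed at 0.60 to 0.71 and that of Pcsk1n to Pcsk1 ran from −0.0639 to 0.212.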

Other observations

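The 3 members called between the genotypes, Scg5, Chgb and Pcsk2, are also those that lie on chromosome 2, which was noticed after their values were seen. Of the 1393 genes tested on that chromosome 12.6% were called, against 11.2% of all genes. The remaining members lie on chromosomes 1, 5, 8, 9, 12, 13 and X.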
